A study of Homo sapiens with 36 samples.

Results

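Interferon-stimulated genes are the genes that a cell switches on when it senses interferon, and most of their products block a step of viral replication. The 38 genes described here were chosen by name, as rows of the RNA count table whose symbols belong to a list of type I interferon-induced antiviral genes and their regulators. All 38 had a row among the 25344 symbols of the table, and 25 of them had enough counts to be among the 9847 genes tested.

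Type I interferon binds a receptor of the chains IFNAR1 and IFNAR2, whose kinases JAK1 and TYK2 phosphorylate STAT proteins. Phosphorylated STAT2 joins IRF9 in the complex ISGF3, which binds an interferon-stimulated response element (ISRE) near the start of its target genes. Many cells keep a low level of these transcripts without added interferon, and microglia, the resident macrophages of the brain, raise them during viral infection, ageing and neurodegeneration.

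The study exposed HMC3, an established human microglial cell line, to perfluorooctane sulfonate (PFOS), a persistent fluorinated surfactant. Cells received 25 µM PFOS, 50 µM PFOS or vehicle for 24 h, and 3 more groups were given the same treatments and then a further 24 h in medium without PFOS (recovery). Each of the 6 groups had 3 RNA-seq libraries, 18 in all, and the 18 H3K27ac CUT&Tag libraries of the series were not analysed here. All groups came from 1 cell line in serum-containing medium, none received interferon or a virus according to the labels, and the recovery groups are also 24 h older in culture than the 24 h groups. The labels call the libraries of a group biological replicates without saying whether the cultures were set up on separate days. The p-values therefore reflect how much these libraries varied, which may be technical.

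Library totals ran between 582233 and 4346627 counts. The 50 µM recovery libraries stood apart: their lowest pairwise correlation was 0.844, against at least 0.945 within the other groups, and 83 ribosomal protein genes took 2.98 to 7.69% of their counts, against 1.22 to 2.45% in the other 15 libraries. Markers of macrophage lineage were scarce: 7 of 16 (AIF1, CX3CR1, TYROBP, C1QA, C1QB, FCGR1A and IRF8) had no count in any library, against the microglial label of the line. The summed level of those 16 markers was 19.2 to 79.5 CPM (counts scaled by the adjusted library total), and that of 8 mesenchymal markers was 3770 to 21100 CPM. The mesenchymal sum was mostly FN1, and COL3A1, also on that list, had no count in any library. Bulk libraries cannot tell fewer cells expressing a gene from less of its RNA per cell.

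The promoters of 4 genes that were lower at 24 h with 50 µM PFOS are shown first, because ISGF3 is known to act through the ISRE. The stretches are from RefSeq on GRCh38.p14, written 5′ to 3′ on the strand of the gene, and the capitals mark matches to the ISRE core GAAANNGAAA or its reverse complement TTTCNNTTTC. IFIT1 (chr10:89392467-89392569, plus strand) is shown for bases -156 to -54 from its start site, PARP9 (chr3:122564292-122564381, minus strand, of 2 start sites that with a match) for -81 to 9, MX1 (chr21:41420529-41420607, plus strand, the first of 3 start sites) for -29 to 50, and OAS1 (chr12:112906902-112907001, plus strand) for -60 to 40.
IFIT1: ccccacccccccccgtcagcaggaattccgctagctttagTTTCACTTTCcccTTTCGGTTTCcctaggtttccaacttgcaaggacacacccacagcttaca
PARP9: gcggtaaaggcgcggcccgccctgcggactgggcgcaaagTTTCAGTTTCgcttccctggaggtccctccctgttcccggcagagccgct
MX1: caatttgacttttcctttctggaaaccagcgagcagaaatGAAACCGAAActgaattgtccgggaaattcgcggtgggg
OAS1: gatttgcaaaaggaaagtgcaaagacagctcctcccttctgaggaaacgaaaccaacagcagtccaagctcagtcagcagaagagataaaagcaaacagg

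The IFIT1 stretch holds 2 matches, PARP9 and MX1 hold 1 each, and the OAS1 window holds no match to these letters. The OAS1 stretch does hold 2 copies of GAAA with 1 base between them, a spacing that the search did not allow. Its lack of a match therefore does not show that OAS1 lacks an ISRE. The symbols of all 38 genes were matched, and 31 had promoter windows of 250 bases before to 50 bases after a start site; IFIT2, MX2, OAS2, OASL, IFITM2, IRF7 and USP18 had none. The ISRE core was found on either strand in 21 of the 31 genes (67.7%), against 4.38% of all 27305 genes with a window and 3.76% of the 8162 tested genes with one. Of the genes called lower at 24 h with 50 µM, 6 had a window and 4 of these had a match (66.7%). These are too few to tell whether a match goes with a fall, and IFIT2 and USP18, also called lower, had no window. The share was the same, 14 of 21 (66.7%), over all tested genes of the list with a window. The core of the gamma-activated site (GAS), TTCNNNGAA, which reads the same on both strands in its fixed letters, was found in 9 of 31 (29.0%), against 9.38% of all genes. PARP9 and DTX3L, which are transcribed away from each other, share 1 ISRE match at chr3:122564332-122564341. Such matches are a description of the letters and show no binding.

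**Figure D1:**
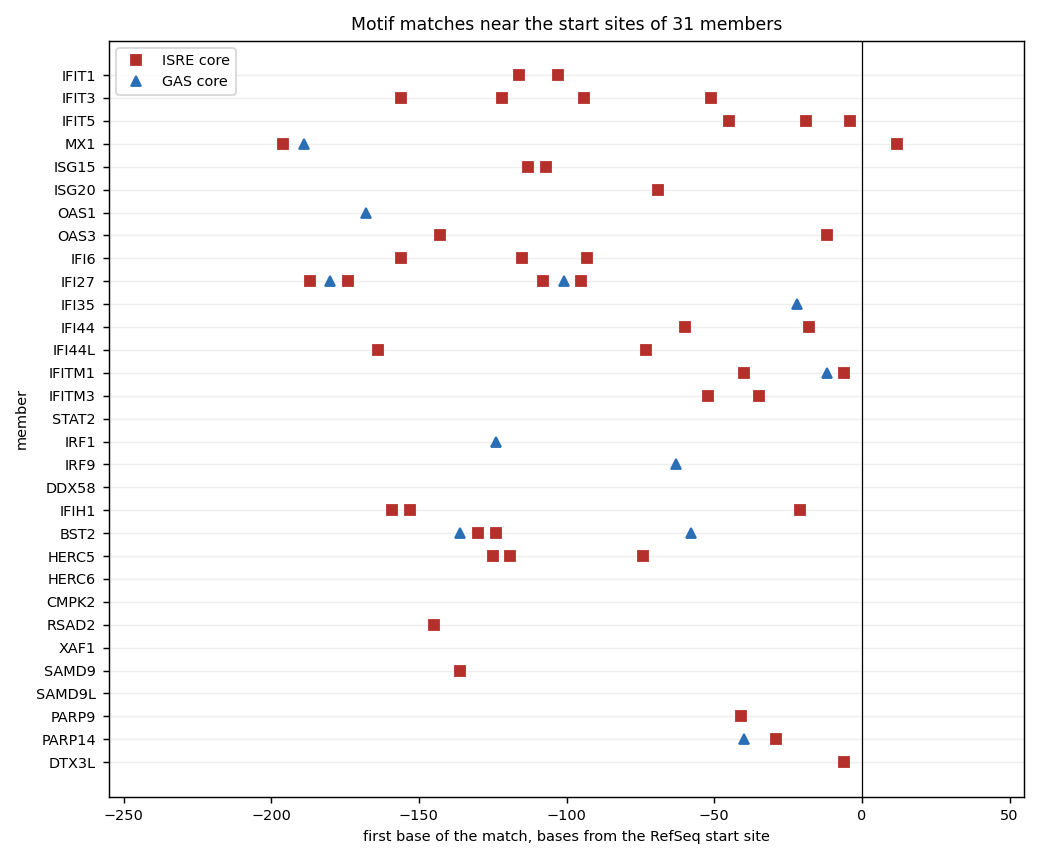
First base of each match to the ISRE core (red squares) and the GAS core (blue triangles) in bases from the RefSeq start site, 1 line for each of the 31 genes with a promoter window. ISRE matches are seen in 21 of 31 genes and GAS matches in 9; lines with no symbol have no match to these letters.

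The genes also lie close together: 23 of the 38 fall into 9 clusters with gaps under 200000 bases. The largest holds IFIT2, IFIT3, IFIT1 and IFIT5 at chr10:89302046-89420997, and others hold OAS1, OAS3 and OAS2 on chromosome 12, the IFITM genes on chromosome 11, and PARP9, DTX3L and PARP14 on chromosome 3. Members of a cluster are therefore not independent observations.

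After 24 h with 50 µM PFOS, 8 of the 25 tested genes fell and none rose: IFIT1, IFIT2, IFIT5, MX1, OAS1, DDX58, USP18 and PARP9. That is 32% of them, against 9.59% of all tested genes called lower and 9.18% called higher in this comparison. The median log2 fold change of the 25 was -0.57, against 0.01 over all tested genes, and 19 (76%) lay below 0, against 49.5%. In 12 of the 25 (48%), every PFOS library lay below every vehicle library, against 21.1% of all tested genes, and in 2 (8%) every PFOS library lay above, against 20.3%. DESeq2 called 7 lower and 1 higher (STAT2), and 12 had an unadjusted edgeR p under 0.05 in either direction, against 31.7% of all tested genes. Leaving out PFOS library 2 left 5 genes called. All 25 reached the count minimum in the other groups alone, so none was tested only because it was high in one of the groups compared.

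After 24 h with 25 µM PFOS, which was compared with the same vehicle libraries, only IFIT1 fell and none rose (4% of the 25, against 0.457% of all tested genes called lower and 0.782% called higher). An unadjusted edgeR p under 0.05 was seen in 7, against 8.8% of all tested genes; DESeq2 called 2 lower. The log2 fold change was below 0 in 20 of the 25 genes (80%), against 50.7% of all tested genes, and above 0 in the other 5, against 49.3%, with a median of -0.39 against 0. Without OAS1 and SAMD9, which reached the count minimum only with the libraries compared, 18 of 23 lay below 0. In 9 (36%) every PFOS library lay below every vehicle library, against 11.5% of all tested genes.

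After recovery from 50 µM PFOS, 7 genes rose (IFIT2, IFIT3, ISG15, OAS1, IFI6, IFI35 and IFI44) and 1 fell (OAS3), that is 28% higher and 4% lower, against 17.7% and 10.7% of all tested genes. The median log2 fold change of the 25 was 0.13, against -0.05 over all tested genes, and 16 lay above 0, against 47% of all tested genes. An unadjusted p under 0.05 was seen in 10, against 39.9%. Every PFOS library lay above every vehicle library in 8 (32%, against 17.2%) and below in none, against 14.1%. Leaving out PFOS library 2 left 5 genes called. Without OAS1 and IFI44, which did not reach the count minimum in the other groups alone, 5 rose and 1 fell of 23, beside the same 17.7% and 10.7%. Of these 23, 14 lay above 0 and 8 had an unadjusted p under 0.05. In 6 of them every PFOS library lay above every vehicle library. Called in either direction were 32% of the 25, against 28.4% of all tested genes. After recovery from 25 µM PFOS, compared with the same vehicle recovery libraries, edgeR called none of the 25 genes, as it called 0% of all tested genes, and DESeq2 also called none; 8 had an unadjusted p under 0.05, against 7.04% of all tested genes. In 8 of the 25 (32%) every library of the 25 µM recovery group lay above every vehicle recovery library, against 6.89% of all tested genes, and in none every library lay below, against 6.92%. Without OAS1, IFI44 and USP18, which reached the count minimum only with the libraries compared, 6 of 22 did so, and 6 had an unadjusted p under 0.05. The log2 fold change was above 0 in 20 of the 25 genes, against 49.9% of all tested genes, and below 0 in the other 5, against 50.1%, with a median of 0.38, against 0.

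**Figure D2:**
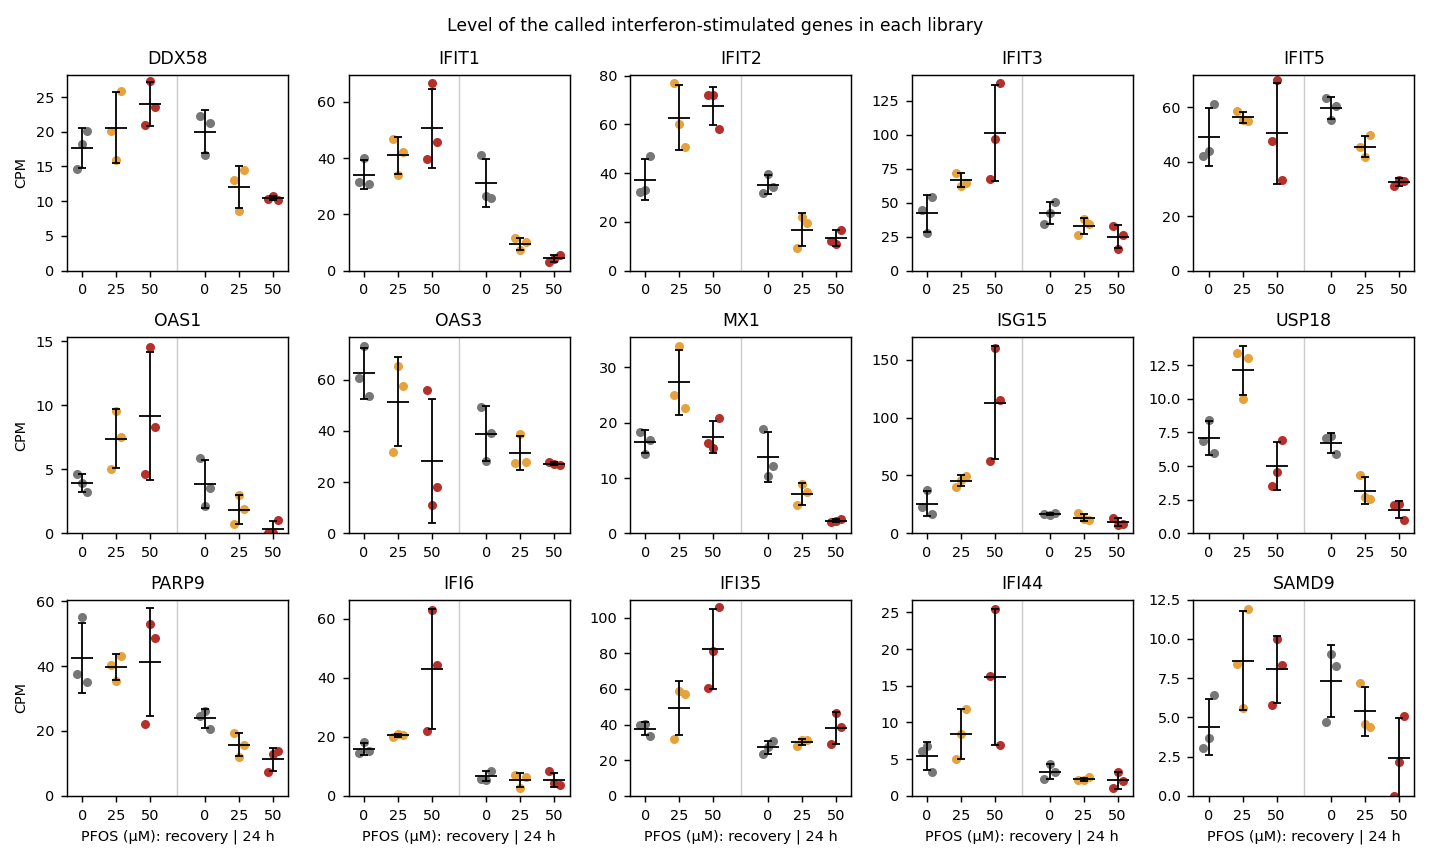
Level in CPM of the 15 genes called in at least 1 comparison, in each library (points; grey vehicle, orange 25 µM, red 50 µM), with mean and SD of 3 libraries (black); the recovery groups are left of the line and the 24 h groups right of it. At 24 h IFIT1 and MX1 lie lowest with 50 µM, while after recovery ISG15 and IFI6 lie highest with 50 µM.

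The sensors DDX58 (RIG-I, listed as RIGI in RefSeq) and IFIH1 (MDA5) recognise double-stranded viral RNA in the cytoplasm and start interferon production. DDX58 had 22.3, 16.6 and 21.2 CPM with vehicle at 24 h, 13, 8.63 and 14.5 CPM with 25 µM PFOS, and 10.3, 10.8 and 10.2 CPM with 50 µM PFOS. Both PFOS groups lay below all vehicle libraries, and the 50 µM libraries were nearly alike. The log2 fold change with 50 µM was -0.92 ± 0.28 (SE; edgeR adjusted p = 0.0243); long noncoding RNAs are annotated across part of its span, and strand is not marked. After recovery from 50 µM, DDX58 had 20.9, 27.3 and 23.6 CPM, against 14.6, 18.3 and 20.1 CPM with vehicle, a log2 difference of 0.42 ± 0.26 that did not pass (edgeR adjusted p = 0.226). The call at 24 h was lost when any 1 of the 3 PFOS libraries or vehicle library 1 or 3 was left out. It was also lost when all libraries were thinned to the depth of the smallest, with adjusted p up to 0.327 over the alternatives. IFIH1 was too low to be tested, at 0.766 to 6.12 CPM over the 18 libraries.

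The transcription factors of the list carry or extend the interferon signal. None of STAT2, IRF9, IRF1 and IRF7 passed the edgeR test in any comparison, except that with a trend against gene span removed IRF7 was lower after recovery from 50 µM than from 25 µM (-1.49, edgeR adjusted p = 0.0137). Without that removal the log2 difference of IRF7 was -1 ± 0.38 (edgeR adjusted p = 0.0664). IRF7 then had 22.1, 3.64 and 16.7 CPM after 50 µM, against 20.1, 34.8 and 17.3 CPM after 25 µM, and these libraries overlapped. STAT2, a subunit of ISGF3, had 50.7, 53 and 46.4 CPM with 50 µM PFOS at 24 h, against 43.5, 28.1 and 30.3 CPM with vehicle, so all PFOS libraries were higher (log2 difference 0.61 ± 0.21, edgeR adjusted p = 0.0513; DESeq2 called it higher). IRF7, which drives interferon alpha genes, had 23.8, 24.9 and 25.5 CPM with 50 µM, against 18.8, 18 and 16.5 CPM with vehicle (0.50 ± 0.33, edgeR adjusted p = 0.326). IRF9, the DNA-binding subunit of ISGF3, had 10.7 to 14.5 CPM with 50 µM and 12.7 to 21.2 CPM with vehicle, and these ranges overlapped. With 25 µM it had 11.5, 11.1 and 10.1 CPM, all below vehicle (-0.58 ± 0.30, edgeR adjusted p = 0.62). IRF1, a factor also induced by interferon gamma, had 25.9, 57.3 and 56.1 CPM with 50 µM, against 30.9 to 32.9 CPM with vehicle, so PFOS library 1 lay below the vehicle range and the other two far above it. With 25 µM IRF1 had 41, 42.1 and 40.3 CPM, all above vehicle (0.38 ± 0.24, edgeR adjusted p = 0.74).

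The IFIT proteins bind foreign RNA and block its translation, and all 4 genes had lower levels at 24 h with 50 µM PFOS, with no overlap between PFOS and vehicle libraries. IFIT1 had 41.2, 26.7 and 25.9 CPM with vehicle, 11.5, 7.28 and 10.1 CPM with 25 µM, and 3.1, 4.33 and 5.61 CPM with 50 µM. The 3 dose groups did not overlap, and both PFOS doses were called. The log2 fold change of IFIT1 was -1.69 ± 0.27 with 25 µM (edgeR adjusted p = 0.00149) and -2.67 ± 0.34 with 50 µM (edgeR adjusted p = 8e-06), while the difference between the doses, -0.98 ± 0.39, did not pass (edgeR adjusted p = 0.143). The 25 µM call was lost when all libraries were thinned to the depth of the smallest (adjusted p = 0.0918).

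IFIT2 had 31.8, 39.6 and 34.5 CPM with vehicle at 24 h, 9.36, 21.9 and 19.5 CPM with 25 µM, and 12.4, 10.8 and 16.8 CPM with 50 µM. It fell with 50 µM by 1.36 ± 0.28 on the log2 scale (edgeR adjusted p = 0.00172), and its change of -1.01 ± 0.25 with 25 µM lay at the threshold (edgeR adjusted p = 0.0514). Vehicle libraries were all higher than both PFOS groups, which overlapped each other. DESeq2 called the 25 µM change of IFIT2 as well (adjusted p = 0.0151).

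IFIT5 had 63.5, 55.5 and 60.4 CPM with vehicle at 24 h, 45.4, 41.8 and 49.7 CPM with 25 µM, and 31, 33.5 and 33.1 CPM with 50 µM. The groups did not overlap, and the log2 fold change with 50 µM was -0.86 ± 0.22 (edgeR adjusted p = 0.00761). IFIT3, a partner of IFIT1, had 33.1, 16.2 and 26 CPM with 50 µM, against 34.1, 42.2 and 50.4 CPM with vehicle. Its libraries did not overlap either, but the log2 difference of -0.77 ± 0.29 did not pass (edgeR adjusted p = 0.0716).

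After recovery IFIT2 and IFIT3 stood above vehicle. IFIT2 had 32.2, 33 and 47.1 CPM with vehicle, 77.1, 60.3 and 50.8 CPM after 25 µM, and 72.1, 72 and 58.3 CPM after 50 µM (log2 fold change 0.85 ± 0.24 with 50 µM, edgeR adjusted p = 0.0107). IFIT3 had 44.4, 27.8 and 54 CPM with vehicle, 72.1, 62.5 and 64.8 CPM after 25 µM, and 67.4, 96.6 and 138 CPM after 50 µM (1.27 ± 0.27, edgeR adjusted p = 0.00127). For both genes every PFOS library of either dose lay above every vehicle recovery library. IFIT1 had 39.5, 66.5 and 45.8 CPM after 50 µM, against 31.4, 40.1 and 30.7 CPM with vehicle, a log2 difference of 0.57 ± 0.24 that did not pass (edgeR adjusted p = 0.0752). IFIT5 had 47.7, 70.1 and 33.3 CPM after 50 µM, against 42.1, 44 and 61.3 CPM with vehicle, with full overlap.

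The annotated span of LIPA, which encodes lysosomal acid lipase, overlaps all of the IFIT1, IFIT2 and IFIT3 spans and 112 bases of IFIT5. The library kit does not mark strand, so reads of overlapping genes cannot be told apart where their exons coincide. LIPA had 51.9 to 63.7 CPM with 50 µM PFOS at 24 h, against 91.3 to 105 CPM with vehicle, and its log2 fold change of -0.67 ± 0.19 passed (edgeR adjusted p = 0.0178); after recovery from 50 µM it was 0.30 ± 0.19 (edgeR adjusted p = 0.241). The part of LIPA reads in the IFIT counts was not tested.

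OAS proteins make oligoadenylates that switch on RNase L, which degrades RNA. OAS1 was counted little: with 50 µM PFOS at 24 h it had 2 counts in all (0, 0 and 1.02 CPM), against 23 counts with vehicle (5.88, 2.16 and 3.53 CPM). Every PFOS library was below every vehicle library; the ratio of summed levels was 0.158, with an exact interval of 0.0181 to 0.641 at the 95% level that covers counting error only. The fitted log2 fold change was -2.56 ± 0.84 (edgeR adjusted p = 0.0372), and the call was lost under 6 of 13 alternatives, DESeq2 and the omission of either vehicle library 1 or 3 or PFOS library 1 or 2 among them. After recovery OAS1 had 4.6, 3.93 and 3.2 CPM with vehicle, 5.03, 9.6 and 7.56 CPM after 25 µM, and 4.65, 14.6 and 8.34 CPM after 50 µM. Both PFOS groups lay above vehicle, by little in library 1 of 50 µM, and the log2 fold change of 1.30 ± 0.47 with 50 µM (edgeR adjusted p = 0.0442) was lost under 9 of 13 alternatives, with adjusted p up to 0.458.

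OAS3, another member of the family, was called lower after recovery. It had 55.8, 10.9 and 18.1 CPM after 50 µM PFOS, against 60.5, 73.1 and 53.6 CPM with vehicle, and fell by 1.17 ± 0.37 on the log2 scale (edgeR adjusted p = 0.0214). PFOS library 1 lay within the vehicle range and libraries 2 and 3 far below it. The call was lost without PFOS library 2 or 3 or vehicle library 2, and with the compared libraries alone, with adjusted p up to 0.204 over the alternatives. At 24 h OAS3 had 27.9, 27 and 26.5 CPM with 50 µM and 49.4, 28.1 and 39.2 CPM with vehicle, a log2 difference of -0.47 ± 0.37 that did not pass (edgeR adjusted p = 0.416).

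MX1, a dynamin-like GTPase that traps viral nucleocapsids, had 18.8, 10.4 and 12.1 CPM with vehicle at 24 h, 5.04, 8.9 and 7.55 CPM with 25 µM, and 2.07, 2.16 and 2.55 CPM with 50 µM. The 50 µM libraries held only 2, 2 and 5 counts of MX1. The 3 groups did not overlap. It fell with 50 µM by 2.42 ± 0.40 on the log2 scale (edgeR adjusted p = 0.000174), and it was the only one of the 25 genes called between the doses at 24 h, at -1.67 ± 0.43 for 50 µM over 25 µM (edgeR adjusted p = 0.0192). That dose call was lost without 25 µM library 2 (adjusted p = 0.136) or any 1 of the 50 µM libraries, and with thinned counts. The drop with 50 µM held under all 13 alternatives.

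After recovery MX1 had 18.4, 14.4 and 16.9 CPM with vehicle, 25.1, 33.9 and 22.7 CPM after 25 µM, and 16.3, 15.5 and 20.8 CPM after 50 µM. The 25 µM libraries were the highest, all above vehicle, but their log2 difference of 0.82 ± 0.24 did not pass the adjustment (edgeR adjusted p = 0.523), and the 50 µM libraries overlapped vehicle (0.09 ± 0.28, edgeR adjusted p = 0.845). MX2, its neighbour on chromosome 21, was not tested: it had 0 counts over the 50 µM libraries at 24 h, against 10 over the vehicle libraries. With the 50 µM group set to a floor of 3 counts its level is 1.83-fold lower. That figure leaves out the counting error of the 10 vehicle counts and is not a bound.

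ISG15 is a ubiquitin-like protein that is attached to other proteins in human cells chiefly by the ligase HERC5 and removed by USP18, which also restrains the interferon receptor; HERC6, a relative of HERC5, has the ligase role in mouse. ISG15 had 23, 37.7 and 16.5 CPM with vehicle after recovery, 40.2, 46.2 and 49.7 CPM after 25 µM, and 62.8, 160 and 115 CPM after 50 µM. The 3 groups did not overlap, with 50 µM highest, and the log2 fold change with 50 µM was 2.09 ± 0.29 (edgeR adjusted p = 4.04e-05). At 24 h ISG15 had 13.5, 7.57 and 7.65 CPM with 50 µM, against 16.5, 15.5 and 17.7 CPM with vehicle. All PFOS libraries were lower, but the log2 difference of -0.84 ± 0.41 did not pass (edgeR adjusted p = 0.162).

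USP18 had 7.06, 7.21 and 5.89 CPM with vehicle at 24 h, 4.32, 2.7 and 2.52 CPM with 25 µM, and 2.07, 2.16 and 1.02 CPM with 50 µM, 2 counts in each of the 50 µM libraries. The groups did not overlap, and the log2 fold change with 50 µM was -2.02 ± 0.45 (edgeR adjusted p = 0.00322; adjusted p = 0.07 without PFOS library 3). After recovery USP18 had 6.89, 8.39 and 5.95 CPM with vehicle, 13.4, 10 and 13 CPM after 25 µM, and 3.49, 4.56 and 6.95 CPM after 50 µM. The 25 µM libraries lay above the other two groups, and 50 µM was lower than 25 µM by a log2 difference of -1.22 ± 0.38 (edgeR adjusted p = 0.025), a call lost under 6 of the alternatives (DESeq2 gave it no adjusted p). HERC5 had 11.9 to 18.9 CPM with 50 µM at 24 h and 19.8 to 21.2 CPM with vehicle, which did not pass (log2 difference -0.39 ± 0.24, edgeR adjusted p = 0.29), and HERC6 changed by -0.08 ± 0.32.

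The membrane restriction factors IFITM2 and IFITM3, which stop viruses from fusing in endosomes, varied widely between libraries of a group and were not called. IFITM3 had 1710, 1280 and 1510 CPM after recovery from 50 µM, against 2450, 3380 and 1330 CPM with vehicle, so the vehicle libraries alone spanned more than the difference. IFITM2 had 548, 395 and 452 CPM, against 765, 937 and 363 CPM. Their log2 differences were -0.67 ± 0.27 for IFITM3 (edgeR adjusted p = 0.0702) and -0.57 ± 0.30 for IFITM2 (edgeR adjusted p = 0.163). With a trend against gene span removed, both were called lower, at -1.66 (edgeR adjusted p = 0.000218) and -1.46 (edgeR adjusted p = 0.000958). The coding sequences of the IFITM genes are close copies of each other, so reads may have been divided between them in counting, and the antisense RNA IFITM3-AS1 spans IFITM3. IFITM1 and BST2, which tethers virions to the cell surface, were too low to be tested, at 0 to 7.29 and 0 to 10.9 CPM.

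RSAD2 (viperin) and CMPK2, neighbours that together supply an antiviral nucleotide, were barely counted: CMPK2 had no count in any of the 18 libraries and RSAD2 had 0 to 4.12 CPM.

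PARP9, of the ADP-ribosyltransferase family, forms a ligase with DTX3L, and PARP14 lies beside them. PARP9 had 24.7, 26.3 and 20.6 CPM with vehicle at 24 h, 19.4, 12.1 and 15.7 CPM with 25 µM, and 7.24, 13 and 13.8 CPM with 50 µM. Both doses lay below vehicle, and the log2 fold change with 50 µM was -1.01 ± 0.33 (edgeR adjusted p = 0.0343), a call lost under 6 of 13 alternatives, including the omission of any 1 PFOS library. DTX3L, which shares an ISRE match and 447 bases with PARP9, had 17.6, 16.2 and 11.2 CPM, against 16.5, 20.5 and 25 CPM, and did not pass (-0.57 ± 0.29, edgeR adjusted p = 0.173). PARP14 had 62.1, 60.6 and 51 CPM, against 75.3, 43.2 and 47.7 CPM, a log2 difference of 0.11 ± 0.20. After recovery from 50 µM the differences of all 3 genes lay between -0.09 and 0.08 on the log2 scale, and the signs of DTX3L and PARP14 turned with the span trend removed.

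Among the remaining induced proteins, IFI6, IFI35 and IFI44 were higher after recovery from 50 µM PFOS and were not called at 24 h. IFI6, a small mitochondrial and endoplasmic reticulum protein, had 14.6, 18.3 and 15.1 CPM with vehicle after recovery, 20.1, 21 and 20.5 CPM after 25 µM, and 22.1, 62.9 and 44.5 CPM after 50 µM (log2 fold change 1.42 ± 0.32, edgeR adjusted p = 0.00227). Library 1 of 50 µM lay close to the 25 µM libraries, and libraries 2 and 3 far above. IFI35, a leucine zipper protein, had 60.5, 81.1 and 106 CPM after 50 µM, against 39.8, 40.1 and 33.4 CPM with vehicle (1.11 ± 0.23, edgeR adjusted p = 0.00092), with no overlap.

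IFI44 had 16.3, 25.5 and 6.95 CPM after 50 µM, against 6.13, 6.81 and 3.2 CPM with vehicle (1.62 ± 0.39, edgeR adjusted p = 0.00409). PFOS library 3 was barely above the highest vehicle library, and the call was lost without PFOS library 2 or with the compared libraries alone (adjusted p up to 0.107). SAMD9, a growth-restraining antiviral factor, had 0, 2.16 and 5.1 CPM with 50 µM at 24 h, against 4.7, 9.01 and 8.25 CPM with vehicle, overlapping at 1 library (-1.38 ± 0.53, edgeR adjusted p = 0.0731). After recovery it had 5.81, 10 and 8.34 CPM with 50 µM, against 3.06, 3.67 and 6.41 CPM with vehicle (0.88 ± 0.51, edgeR adjusted p = 0.205).

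**Figure D3:**
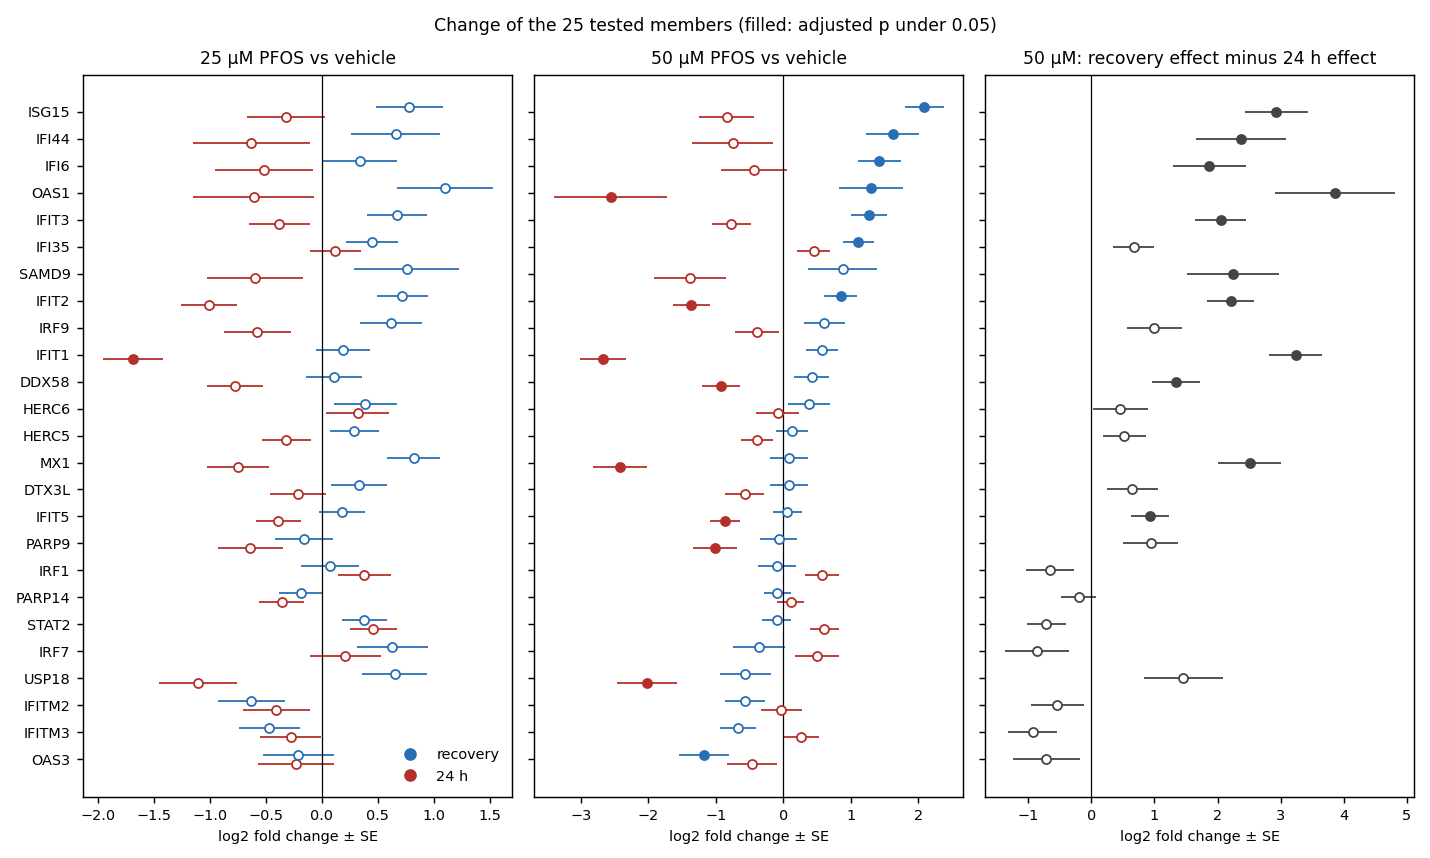
Log2 fold change with SE of the 25 tested genes against vehicle at 25 µM (left) and 50 µM (middle), after recovery (blue) and at 24 h (red), and the 50 µM recovery effect minus the 24 h effect (right); filled points passed an adjusted p of 0.05. In the middle panel the filled red points lie below 0 and all filled blue points but OAS3 lie above 0.

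The effect of 50 µM PFOS after recovery was then compared with its effect at 24 h in the same fit; these 2 effects share no library. Of the 25 genes, 11 had a higher effect after recovery and none a lower one (44%, against 11.6% of all tested genes called higher and 7.42% called lower), and 9 of 23 were higher without OAS1 and IFI44. An unadjusted p under 0.05 was seen in 16, against 33.5% of all tested genes, and DESeq2 called 11. With the span trend removed 10 were higher and 1, IFITM3, was lower (-1.56, edgeR adjusted p = 0.00777). IFIT1 differed by 3.24 ± 0.42 on the log2 scale (edgeR adjusted p = 4.09e-05), from 0.57 after recovery and -2.67 at 24 h. ISG15 differed by 2.93 ± 0.50 (0.000702), MX1 by 2.51 ± 0.50 (0.00278), IFIT2 by 2.21 ± 0.37 (0.000623) and IFIT3 by 2.05 ± 0.40 (0.00225), each with its edgeR adjusted p in brackets. OAS1, IFI44, SAMD9, IFI6, DDX58 and IFIT5 also passed, with differences between 0.93 and 3.86; of 19 alternatives, IFIT5 lost its call under 14, SAMD9 under 10, IFI6 under 7, IFI44 under 6, DDX58 under 3 and OAS1 under 1. The median difference was 0.94, against 0.02 over all tested genes. The calls for IFIT1, IFIT2, IFIT3, MX1 and ISG15 held under all 19 alternatives, and LIPA also passed, at 0.97 ± 0.27 (edgeR adjusted p = 0.0167).

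A drop at 24 h and a rise after recovery were called in the same gene for 2 genes, IFIT2 and OAS1, which are 25.0% of the 8 that fell and 28.6% of the 7 that rose. For IFIT1, MX1, DDX58 and IFIT5 the difference between the times came with a called drop at 24 h and no call after recovery. For ISG15, IFIT3, IFI6 and IFI44 it came with a called rise after recovery and no call at 24 h, though ISG15 (-1.17, edgeR adjusted p = 0.00651) and IFIT3 (-0.84, edgeR adjusted p = 0.0475) were called lower at 24 h with the span trend removed.

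With 25 µM PFOS the same difference between recovery and 24 h was called by edgeR for none of the 25 genes, against 0.0203% of all tested genes; DESeq2 called 2, and 10 had an unadjusted p under 0.05, against 4.65% of all tested genes. Without OAS1, IFI44, USP18, HERC6 and SAMD9, which reached the count minimum only with the libraries compared, 7 of 20 did so. IFIT1 differed by 1.88 ± 0.36 (edgeR adjusted p = 0.072, DESeq2 0.00274) and IFIT2 by 1.73 ± 0.34 (edgeR adjusted p = 0.0726, DESeq2 0.00109). IFIT1 had 46.9, 33.9 and 42.1 CPM after recovery from 25 µM, against 31.4, 40.1 and 30.7 CPM with vehicle. The median difference over the 25 genes was 0.61, against 0 over all tested genes.

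Between the doses, 1 gene fell at 24 h (MX1) and none rose, that is 4% lower of the 25, against 3.62% of all tested genes called lower, 3.79% called higher and 7.4% called in either direction. The log2 difference lay below 0 in 16 of the 25, against 49.2% of all tested genes. After recovery, ISG15 (1.31 ± 0.29, edgeR adjusted p = 0.00348), IFI6 (1.08 ± 0.33, 0.0238) and IFI35 (0.66 ± 0.23, 0.0414) were higher with 50 µM than with 25 µM and USP18 was lower, that is 12% higher and 4% lower, against 14.7% and 7.38% of all tested genes. Both shares lie below those of all tested genes. Of 13 alternatives, the call of IFI35 was lost under 9, that of IFI6 under 6 and that of ISG15 under 2. Without 50 µM library 2 the count of called genes was 1, without library 1 it was 7, and without 25 µM library 2 or 3 it was 2. In libraries that received vehicle only, edgeR and DESeq2 called none of the 25 genes between recovery and 24 h, against 0.975% of all tested genes; 8 had an unadjusted p under 0.05, against 13.2% of all tested genes, and IFI6 was the furthest apart, with 14.6, 18.3 and 15.1 CPM after recovery and 5.88, 5.4 and 8.54 CPM at 24 h (1.24 ± 0.36, edgeR adjusted p = 0.122).

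The higher ribosomal share of the 50 µM recovery libraries ran in the same order as ISG15: 2.98, 7.69 and 5.1% in libraries 1, 2 and 3, beside 62.8, 160 and 115 CPM of ISG15. Summed mesenchymal markers were 3770 to 12500 CPM in these libraries, against 12900 to 17600 CPM with vehicle after recovery, and summed epithelial markers 1040 to 1310 CPM, against 540 to 584 CPM. The mesenchymal sum was mostly FN1, with means of 6250 CPM with 50 µM and 12200 CPM with vehicle after recovery. VIM went the other way, with 631 and 537 CPM. The epithelial sum was mostly KRT18, with 1110 and 530 CPM. EPCAM and CDH1 were near the floor. EPCAM had 1 count over the 50 µM libraries and 15 over the vehicle libraries (means of 0.304 and 2.01 CPM). CDH1 had 7 and 25 counts (2.54 and 2.91 CPM), and its libraries overlapped. Summed macrophage markers, mostly CD68, were 54.7 to 65.1 CPM with 50 µM after recovery, against 19.2 to 30.6 CPM with vehicle, and 56.2 to 79.5 CPM with 50 µM at 24 h, against 23.5 to 26.7 CPM with vehicle. The part of these differences in the results was not tested. Across genes, the difference of a library from the vehicle mean correlated with gene span at -0.36 to -0.22 (Spearman) in these 3 libraries and at -0.25 to 0.22 in the other 15. With that trend removed, ISG15 was still called after recovery from 50 µM, at 0.91 ± 0.21 in place of 2.09 (edgeR adjusted p = 0.00291), as were IFIT3 at 1.13, IFI6 at 1.01, IFI35 at 0.80 and IFI44 at 1.53. IFIT2 was then no longer called (0.52, edgeR adjusted p = 0.135), and the dose differences of ISG15, IFI6 and IFI35 after recovery were lost, while IFITM3 (-1.0, edgeR adjusted p = 0.011) and IRF7 were called lower beside USP18, so that none was higher and 3 were lower with 50 µM. At 24 h with 50 µM, 10 genes were called lower with the trend removed, and the drops of IFIT1 (-2.72) and MX1 (-2.38) were of about the same size.

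**Figure D4:**
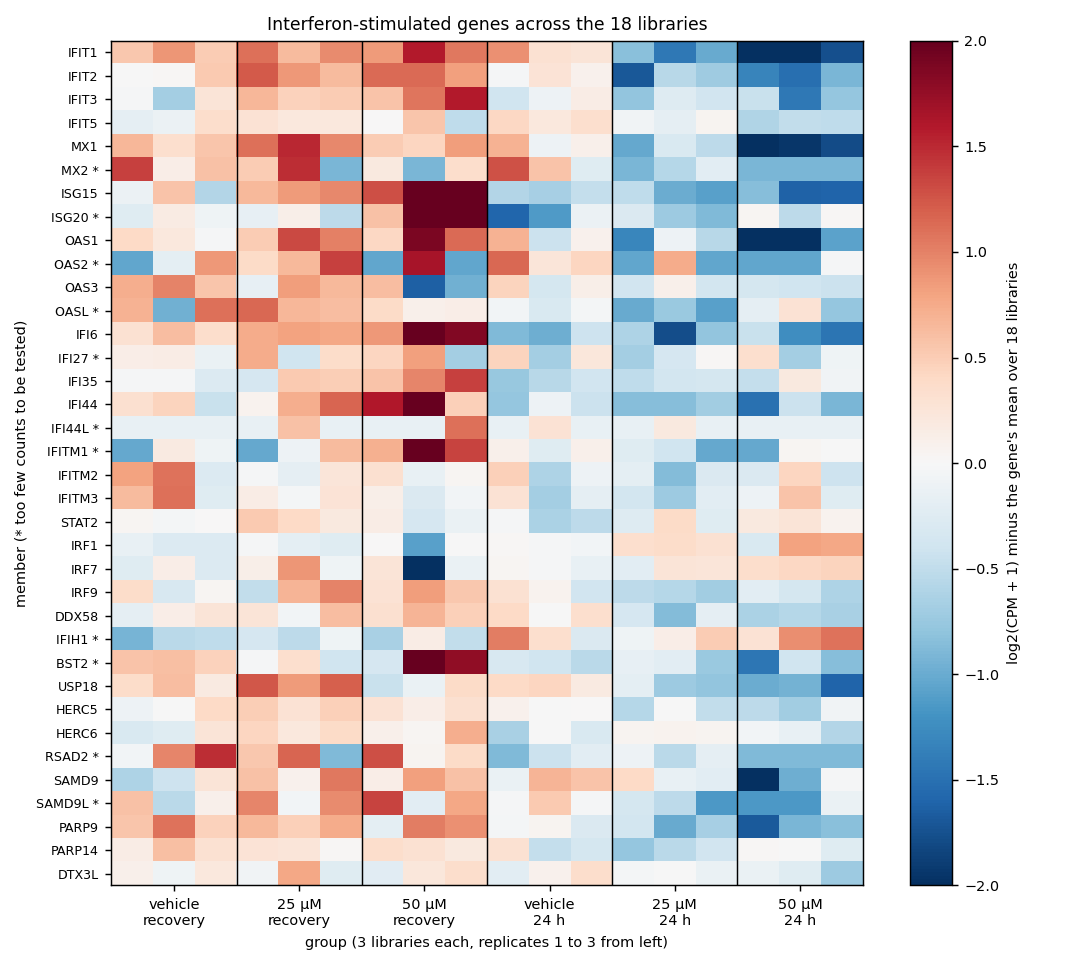
Log2(CPM + 1) of the 36 genes with a count, minus each gene's mean over 18 libraries (colour, red higher), 1 column per library with the recovery groups at left and the 24 h groups at right; an asterisk marks the 11 of them with too few counts to be tested. ISG15 and IFI6 are reddest in libraries 2 and 3 of the 50 µM recovery group, and IFIT1 and MX1 bluest in the 50 µM libraries at 24 h.

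Of the 13 genes not tested, CMPK2 and XAF1 had no count in any library, and none of the other 11 exceeded 28 counts in a library. ISG20, an RNA exonuclease, had that highest count: it had 3.49, 25.5 and 12.5 CPM after recovery from 50 µM, against 1.53, 2.36 and 1.83 CPM with vehicle. Without the count minimum edgeR called ISG20 higher there (2.73 ± 0.55, adjusted p = 1.25e-05) and IFITM1 as well (2.23 ± 0.82, adjusted p = 0.0391). Both calls rest on few counts. ISG20 had 3, 28 and 9 counts with 50 µM, most of them in library 2, against 2, 9 and 4 with vehicle. IFITM1 had 2, 8 and 3 counts, against 0, 5 and 2. The share of all genes called in that fit is not given here. OAS2, OASL, IFI27, IFI44L and SAMD9L stayed at or under 6.71 CPM in every library.

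The upstream part of the pathway was read from further lists. None of the 20 type I and type III interferon ligand genes could be tested: 17 had no count and the others had 5 counts in all 18 libraries together, 1 of them IFNB1. Of 16 tested receptors, kinases and inhibitors, none rose and 4 fell at 24 h with 50 µM (SOCS3 -1.0, IL10RB -0.81, STAT3 -0.59 and PIAS1 -0.48), which is 25.0%, against 9.59% of all tested genes called lower. After recovery from 50 µM none of the 16 rose and 3 fell (PIAS4 -1.23, JAK1 -0.75 and PTPN1 -0.61), which is 18.8%, against 10.7%. SOCS3, PIAS1, PIAS4 and PTPN1 restrain cytokine signalling. JAK1 had 145, 49.2 and 75 CPM after recovery from 50 µM, against 174, 110 and 168 CPM with vehicle, and PFOS library 1 lay within the vehicle range (edgeR adjusted p = 0.0401). The receptor chains were not called: IFNAR1 changed by -0.21 ± 0.18 and IFNAR2 by -0.25 ± 0.22 at 24 h with 50 µM, and by 0.23 ± 0.18 and 0.09 ± 0.24 after recovery. TYK2 was not called either, at -0.03 ± 0.30 and -0.57 ± 0.35.

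Of 42 other tested interferon-induced genes, 2 rose and 5 fell at 24 h with 50 µM, and 8 rose and 4 fell after recovery, which is 16.7% and 28.6% in either direction, against 18.8% and 28.4% of all tested genes. At 50 µM the share called in either direction was thus about the background rate. By direction, 4.76% were higher and 11.9% lower at 24 h, against 9.18% and 9.59% of all tested genes. After recovery 19.05% were higher and 9.52% lower, against 17.7% and 10.7%. GBP1, a guanylate-binding protein, had 4.14, 4.33 and 0 CPM with 50 µM at 24 h, against 23.5, 22.7 and 23.9 CPM with vehicle (-3.40 ± 0.46, edgeR adjusted p = 1.83e-05), and DDX60, a helicase, fell by 1.40 ± 0.34. SLFN5, of the Schlafen family, had 77.6, 59.5 and 66.8 CPM, against 8.23, 10.8 and 6.77 CPM (2.97 ± 0.24, edgeR adjusted p = 1.77e-08). IFI16, a DNA sensor, rose by 1.71 ± 0.23, and SLFN12 and CNP fell by 1.07 and 1.02. SLFN5 also rose after recovery, by 1.03 ± 0.27, as did IFI16, by 0.69 ± 0.23, and NMI, a binding partner of IFI35, by 1.13 ± 0.36, while CD274 (PD-L1) fell by 0.63 ± 0.18. With 25 µM at 24 h SLFN5 (1.64) and IFI16 (0.97) rose and GBP1 (-1.41) and CD274 (-0.91) fell, 4 of the 42 (9.52%), against 1.24% of all tested genes. Of 16 tested nucleic acid sensing genes, TRIM25, which ubiquitinates RIG-I, had 82.8, 85.4 and 87.2 CPM with 50 µM at 24 h, against 28.2, 31 and 31.5 CPM with vehicle (1.48 ± 0.19, edgeR adjusted p = 1.12e-05), and rose with 25 µM by 0.94 ± 0.19 (edgeR adjusted p = 0.0117). With 50 µM at 24 h TLR4 rose by 0.93, SAMHD1 fell by 0.69, and RNF135 rose by 1.12 after recovery. These are 12.5% higher and 6.25% lower at 24 h, against 9.18% and 9.59% of all tested genes, and 6.25% higher after recovery, against 17.7%. Of 9 tested partners of IRF and NF-kB, only IRF2BP2 was called, at 1.14 ± 0.29 at 24 h with 50 µM (11.1% higher, against 9.18% of all tested genes).

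**Figure D5:**
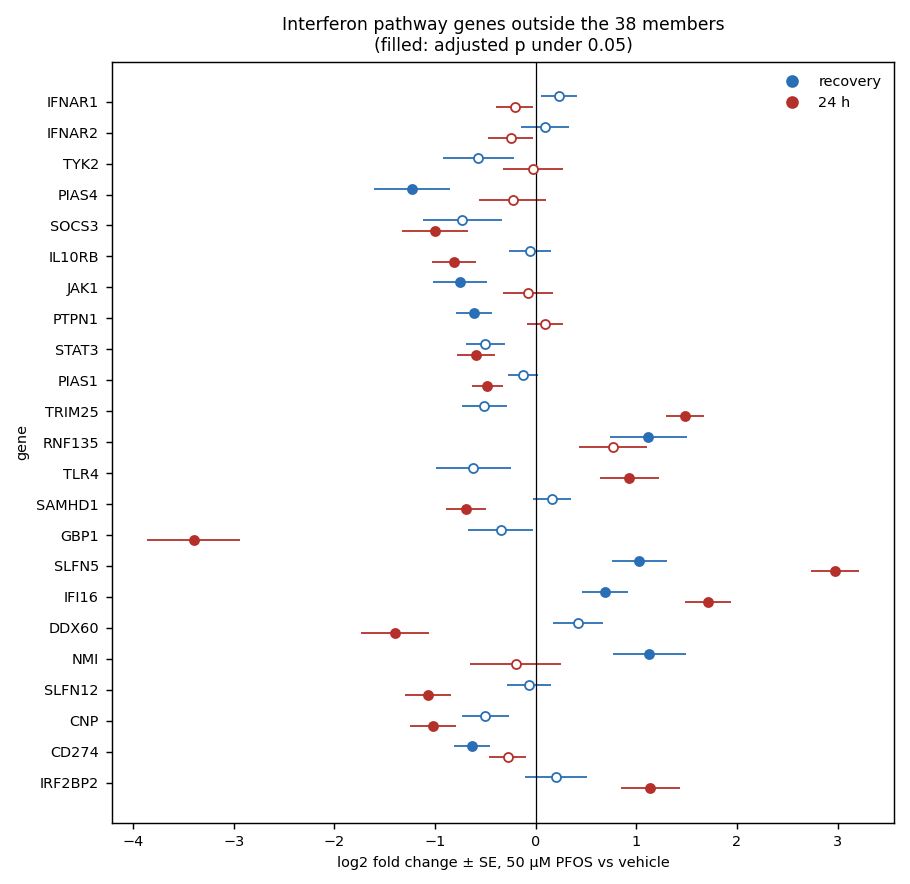
Log2 fold change with SE of the named interferon pathway genes outside the 38, 50 µM PFOS against vehicle, after recovery (blue) and at 24 h (red); filled points passed an adjusted p of 0.05. GBP1 at -3.40 and SLFN5 at 2.97 mark the ends at 24 h, while IFNAR1, IFNAR2 and TYK2 have no filled point.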

How the data were processed

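Per the labels' protocols, poly(A) RNA of 100 ng input was made into libraries by Smart-seq2, which adds no molecular identifiers and does not mark strand. The authors deposited 1 table of raw read counts per gene symbol for the 18 libraries. The submitters' processing notes name Trimmomatic, STAR, DESeq2 and MACS2 with the builds GRCh38 and hg38. Counting program and annotation: not given in the sources used here. Counts were fitted with edgeR 4.0.16 (R 4.3.3): filterByExpr with a minimum count of 10, TMM scaling, 1 mean for each of the 6 groups over all 18 libraries, the quasi-likelihood test, two-sided, and Benjamini-Hochberg adjustment over 9847 genes at a threshold of 0.05. CPM use TMM-scaled totals, and SE is the log2 fold change divided by the square root of F. The scripts were tested on simulated data. Intervals cover counting error only. Tested genes held 99.2% of the counts. DESeq2 1.42.0 was an alternative. Promoters and gene spans are from RefSeq GRCh38.p14.

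The genes and pathway lists were chosen with earlier results of these data known. Genes called in any comparison are given by library; from each pathway list at most 8 called genes are named, by size of change, plus IFNB1, IFNAR1, IFNAR2, JAK1 and TYK2; 1 further pathway gene is not reported here. ISG20, LIPA and the other untested genes named with a value were added after their values were seen.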

Additional observations from a re-analysis of the deposited data

Results flagged for a closer look

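For 11 genes the effect of 50 µM PFOS after recovery differed from its effect at 24 h, tested as an interaction term with edgeR. The log2 differences, recovery minus 24 h, were 3.24 for IFIT1, 2.21 for IFIT2, 2.05 for IFIT3, 0.93 for IFIT5, 2.51 for MX1, 2.93 for ISG15 and 3.86 for OAS1. They were 1.87 for IFI6, 2.37 for IFI44, 1.34 for DDX58 and 2.25 for SAMD9. Their edgeR adjusted p-values ran between 4.09e-05 (IFIT1) and 0.0382 (IFIT5). Groups of 3 libraries are too small to be searched for outlying libraries.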

How the results depend on the processing

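No called gene changed direction. With the span trend removed, 9 of 225 log2 differences turned sign, none of them called: IFITM3 (24 h, 50 µM), IRF1 (recovery, 25 µM), IFIT5, PARP14 and DTX3L (recovery, 50 µM), IFI6 (between doses, 24 h), and IFIT2, IFITM2 and HERC6 (between doses, recovery). The count of genes called, of 25, moved as follows. At 24 h with 25 µM (1 gene) it was 2 with DESeq2, with DESeq2's size factors in edgeR (RLE), without the count minimum and with the compared libraries alone, and 0 with thinned counts. At 24 h with 50 µM (8) it was 4 with thinned counts and 5 to 7 with 1 library left out (5 without PFOS library 2). After recovery from 50 µM (8) it was 5 with the compared libraries alone and 5 to 10 with 1 left out (5 without PFOS library 2). Between doses at 24 h (1) it was 2 without the count minimum or with the compared libraries alone, 0 with thinned counts and 0 to 1 with 1 left out (0 without 25 µM library 2 or any 50 µM library). Between doses after recovery (4) it was 2 with thinned counts, 0 with the compared libraries alone and 1 to 7 with 1 left out (1 without 50 µM library 2, 7 without library 1, 2 without 25 µM library 2 or 3). The difference between times (0 with 25 µM) gave 2 with DESeq2, without the count minimum and with the compared libraries alone; with 50 µM (11) it gave 5 with thinned counts, 7 with the compared libraries alone and 6 to 17 with 1 left out, 6 without 50 µM recovery library 2, 7 without vehicle library 3 at 24 h and 17 without 50 µM recovery library 1. For vehicle (0) it was 4 without the count minimum, 1 with the compared libraries alone and 0 to 1 with 1 left out (1 without vehicle library 1 at 24 h). A replicate block gave 1, 8, 8 and 10 for the 25 µM and 50 µM effects at 24 h, the 50 µM recovery effect and its difference from 24 h; IFIT5 lost that last call. Same-numbered libraries did not deviate together (correlations -0.323 to 0.382), so the numbers were not taken as pairs. Depth limits OAS1, USP18, IFI44 and SAMD9, which had few counts per library. It also limits genes with few counts in the 50 µM libraries at 24 h: MX1 (2, 2 and 5 counts), IFIT1 (3, 4 and 11) and IFI6 (8, 4 and 7).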
